A study of Mus musculus with 21 samples.

Results

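Liver and epididymal fat of obese male mice were set against each other across all genes, with 6 single-colour Agilent arrays of the 21 in the series. The 3 liver arrays and the 3 fat arrays came from wild-type C57Bl6/J males aged 45 weeks. All had eaten a high-fat diet from weaning at 5 weeks until 44 weeks, at 23 °C with 12 h of light, so no lean mouse stands beside them and no difference here can be ascribed to the diet. The 3 liver arrays are all those titled wild-type liver, and the fat arrays are replicates 1, 3 and 4 of the 4 titled wild-type epididymal fat. The file of fat replicate 2 was left out because its values did not match that sample's own column in the authors' table. The same contrast in 3 liver and 4 fat arrays of mice lacking JNK1, the stress kinase encoded by *Mapk8*, which ate the same diet, is given at the end. The labels name neither the mouse behind an array nor a mouse shared by a liver and a fat array, so the p-values measure only the spread between these samples, which may be technical.

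Liver takes up nutrients from the portal blood, makes most plasma proteins, releases glucose and ketone bodies, builds bile acids and disposes of nitrogen and foreign compounds. Hepatocytes make up most of its mass and owe their identity to a set of transcription factors that includes HNF4A and the FOXA and C/EBP families. White fat stores triglyceride in adipocytes under the control of PPARG and secretes hormones such as leptin and adiponectin. In long obesity the epididymal depot holds many macrophages, together with fibroblasts, vessels and a mesothelial covering.

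Each value below is log2 of the background-corrected spot intensity relative to the 75th percentile of its array, so 0 is that percentile and a step of 1 is a doubling. Values of 1 gene can be compared between arrays, while levels of different genes cannot, because probes differ in brightness. Liver values are given for replicates 1, 2 and 3 and fat values for replicates 1, 3 and 4, in that order, and differences are liver minus fat with their standard error (SE, 3 arrays a tissue). Where no array of a tissue was well above background, only a lower bound of the fold is given, the bright tissue's mean set against the dimmest signal counted as well above background on each array. A gene was called when the p from limma, adjusted by the Benjamini-Hochberg method over all 14679 genes tested, was below 0.05. For every called gene named below, the 3 values of one tissue all lay on 1 side of the 3 of the other, as they did for 38.1% of all tested genes with liver above and 35.7% with fat above, and genes whose arrays overlapped are given as such.

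Of the 14679 genes, 5098 (34.7%) were higher in liver and 4849 (33.0%) were lower in liver, so 67.8% differed between the tissues. The counts given below for each gene list are to be read against these shares. At least a doubling was shown by 3285 genes higher in liver (22.4%) and 3528 lower (24.0%). A difference of at least 3 on the log2 scale was shown by 1049 genes higher and 956 lower, of which 352 were not well above background on any fat array and 490 not on any liver array. The split of calls depends on the scaling, since 41.0% of the calls were higher in liver when the percentile was taken over probes above background on all 6 arrays, against 51.3% with the percentile over all probes. Scaling moved the median difference of all genes between -0.234 and 0.218 around the reported 0.0316. Single genes moved further, as *Acsl1* stood at -0.049 in the main fit and at -1.15 with quantile normalization. That setting called 53 of the 9947 main calls in the opposite direction. Differences of about 1 or less therefore have no secure direction. In whole tissue, fewer cells of a type and less RNA per cell cannot be told apart.

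**Figure D1:**
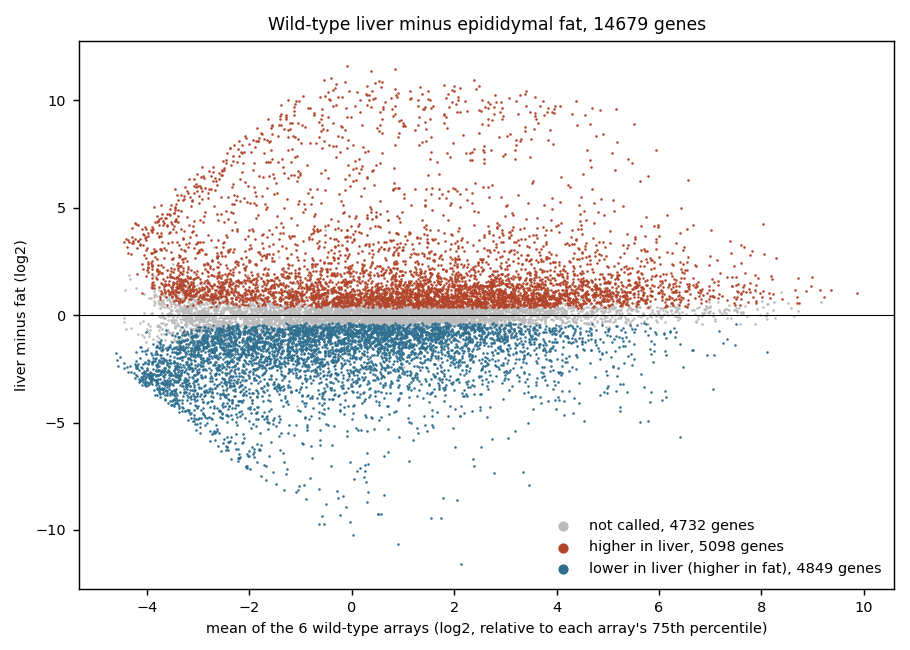
Liver minus fat (log2, vertical axis) against the mean of the 6 wild-type arrays (log2 relative to the 75th percentile, horizontal axis) for 14679 genes, each a point. The 5098 genes called higher in liver reach differences above 10, the 4849 called lower reach beyond -10.

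Of the 41174 probes, between 46.1% and 48.2% were well above background on the liver arrays and between 46.7% and 56.5% on the fat arrays. Across probes, r was 0.972 to 0.983 among liver arrays, 0.976 to 0.982 among fat arrays and 0.845 to 0.873 between tissues, as a description, since probes are not independent. The tissue labels matched the defining markers: the 15 hepatocyte markers averaged 7.05, 7.14 and 6.96 in liver and -1.46, -0.66 and -3.59 in fat, and the 20 adipocyte markers averaged -1.16, -1.08 and -1.21 in liver and 4.80, 4.63 and 4.74 in fat. The fat arrays thus carried unequal amounts of hepatocyte transcripts, lowest on replicate 4, and 12, 12 and 7 of the 15 markers were well above background there. Liver replicate 3 stood apart for 22 pancreas genes, with a mean of 1.99 against -2.27 and -2.80 on the other liver arrays. Some named genes and lists whose call or value turned on these arrays are given without them as well. Other lists, given without such values, also lost calls in some of these settings. Fat replicate 4 alone means the setting that leaves out fat replicates 1 and 3, chosen after seeing the data. In that setting 13 of the called genes named below missed the threshold with the direction kept (adjusted p 0.0553 to 0.276), *Acaca*, *Apoe*, *Arg2*, *Arntl*, *Bcl6*, *Cyp2s1*, *Fbp2*, *H2-Ab1*, *Hoxa3*, *Insr*, *Krt7*, *Marco* and *Sult5a1*. The 6 arrays lay on 3 slides, 2 of which held both tissues. Within those slides 9945 and all 9947 of the 9947 calls kept their sign. The calls largely fix that outcome, since the same arrays made them. With the slide as a block 8528 genes were called.

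Hepatocyte markers were higher in liver at all 15 of 15 genes, with a median difference of 9.48 against 0.0316 over all genes, and so were all 24 plasma protein genes (median 9.28). *Alb*, which encodes serum albumin, stood at 9.80, 10.28 and 9.27 in liver, against 2.59, 3.51 and 0.15 in fat, a difference of 7.70 ± 0.82, adjusted p = 0.000207. Albumin was bright in all 3 livers and its 3 fat values spread over more than 3 units, with replicate 4 lowest. *Hpd*, an enzyme of tyrosine breakdown, stood at 7.51, 7.51 and 7.23 in liver, against -2.79, -1.63 and -5.13 in fat (10.60 ± 0.81, adjusted p = 4.67e-05). *Slc10a1*, the sinusoidal bile salt transporter, was at least 444-fold higher in liver (adjusted p = 3.90e-06), and *Ttr*, the carrier of thyroxine and retinol-binding protein, at least 164-fold higher in liver (adjusted p = 4.34e-06). *Itih1*, which stabilises hyaluronan in the matrix, was at least 509-fold higher in liver (adjusted p = 3.09e-06). *Trf*, transferrin, differed least among the plasma proteins named, with 9.28, 9.40 and 8.68 in liver, against 5.34, 5.84 and 5.78 in fat (3.47 ± 0.24, adjusted p = 3.19e-05). With fat replicate 4 as the only fat array the median of the hepatocyte markers was 11.4, against 9.48 with all 3.

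Among the 10 genes with the largest differences on probes well above background on all 6 arrays were *Apoa5*, *Serpina1c* and *Bhmt*. *Apoa5*, an activator of lipoprotein lipase made by hepatocytes, stood at 8.63, 8.64 and 8.60 in liver, against -1.28, -0.08 and -4.06 in fat (10.43 ± 0.92, adjusted p = 8.79e-05). *Serpina1c*, an alpha-1 antitrypsin, stood at 8.73, 8.70 and 8.19 in liver, against -1.25, -0.43 and -3.60 in fat (10.30 ± 0.76, adjusted p = 3.99e-05). *Bhmt*, which remethylates homocysteine, stood at 8.25, 8.34 and 7.78 in liver, against -1.46, -0.46 and -4.0 in fat (10.10 ± 0.84, adjusted p = 6.56e-05). Among these 3 genes too, fat replicate 4 was the lowest array. The largest bounds for genes seen in no fat array belonged to *Apoa4*, a chylomicron and HDL apolipoprotein, at least 1577-fold, *Hsd17b13*, a lipid droplet protein of hepatocytes, at least 1109-fold, and *Cyp3a11*, a drug-metabolising P450, at least 1056-fold. All 3 passed the test (adjusted p = 2.61e-05, 1.85e-05 and 3.01e-05).

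Promoters of such genes are known sites of HNF1 and HNF4, homeodomain and nuclear receptor factors of hepatocytes. Below are the 120 bases before the RefSeq start (GRCm38.p6, read 5′ to 3′ on the gene's strand) of 6 genes higher in liver with the HNF1 element GTTAATNAT, 3 with the HNF4 element CAAAGTCCA, and *Lep*, lower in liver, with the C/EBP palindrome TTGCGCAA. They are examples picked by hand to show where the letters lie, and other genes higher in liver with the same letters, some with larger differences, are not shown. Capitals mark these elements on either strand and, where present, a TATA box (TATAAA).
Alb, chr5:90460750-90460869, plus strand: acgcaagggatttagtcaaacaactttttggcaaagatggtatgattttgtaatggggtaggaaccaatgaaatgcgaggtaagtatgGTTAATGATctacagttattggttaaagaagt
Fga, chr3:83026033-83026152, plus strand: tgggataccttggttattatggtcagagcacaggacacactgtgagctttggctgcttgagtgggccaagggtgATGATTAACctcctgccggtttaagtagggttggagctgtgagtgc
Gckr, chr5:31297443-31297562, plus strand: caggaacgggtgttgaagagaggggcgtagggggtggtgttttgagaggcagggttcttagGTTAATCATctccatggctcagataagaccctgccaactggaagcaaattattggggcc
C4bp, chr1:130661619-130661738, minus strand: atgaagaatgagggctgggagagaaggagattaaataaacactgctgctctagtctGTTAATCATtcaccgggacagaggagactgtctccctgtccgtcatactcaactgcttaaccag
Igfbp1, chr11:7197667-7197786, plus strand: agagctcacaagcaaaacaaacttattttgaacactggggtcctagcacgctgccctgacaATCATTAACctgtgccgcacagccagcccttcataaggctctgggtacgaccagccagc
Ugt1a1, chr1:88211839-88211958, plus strand: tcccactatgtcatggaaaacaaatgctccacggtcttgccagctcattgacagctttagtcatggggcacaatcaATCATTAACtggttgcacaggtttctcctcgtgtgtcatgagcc
Cyp2c40, chr19:39812815-39812934, minus strand: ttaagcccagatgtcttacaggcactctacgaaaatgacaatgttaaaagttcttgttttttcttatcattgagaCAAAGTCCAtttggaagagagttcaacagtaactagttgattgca
Cyp8b1, chr9:121916306-121916425, minus strand: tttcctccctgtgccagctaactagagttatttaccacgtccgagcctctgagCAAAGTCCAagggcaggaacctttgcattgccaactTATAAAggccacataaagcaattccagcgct
Cyp3a11, chr5:145879855-145879974, minus strand: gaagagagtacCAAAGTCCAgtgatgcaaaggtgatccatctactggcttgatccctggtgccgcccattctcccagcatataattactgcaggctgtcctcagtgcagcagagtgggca
Lep, chr6:29060101-29060220, plus strand: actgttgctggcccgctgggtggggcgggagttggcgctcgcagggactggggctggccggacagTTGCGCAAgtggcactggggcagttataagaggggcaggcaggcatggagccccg
The HNF1 letters, searched on both strands of the 250 bases before a start, were found for 37 of 766 genes higher in liver by at least 3 (4.83%), for 2 of 614 lower by at least 3 (0.326%), for 0.697% of the 10478 tested genes with a promoter, and for 0.866% of all 27025 genes with a promoter in the table. In the same order the shares were 1.96%, 0.326%, 0.525% and 0.451% for the HNF4 letters, and 0.261%, 0.489%, 0.277% and 0.185% for the C/EBP palindrome. AAAGGTCA, part of the repeat bound by PPAR, was found in 3.79%, 1.63%, 1.34% and 1.55%. TATAAA was found in 17.2%, 13.4%, 8.98% and 14.3%. None of these elements contains another, a match is only a description of the window, and the shares were not tested.

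Of the 28 liver transcription factors tested, 23 were higher in liver and 1 lower (median 4.42). For 8 of the 28 no fat array was well above background. *Hnf4a*, the nuclear receptor at the head of the hepatocyte program, was at least 65.2-fold higher in liver (adjusted p = 1.25e-05), and *Foxa2*, a forkhead pioneer factor, at least 310.5-fold higher in liver (adjusted p = 4.71e-06). *Ppara*, the receptor that switches on fatty acid oxidation in fasting, stood at 5.53, 5.52 and 5.89 in liver, against -0.45, -0.36 and -0.17 in fat (5.97 ± 0.17, adjusted p = 2.12e-06). *Bcl6*, a transcriptional repressor, was the exception, with 1.55, 2.58 and 2.09 in liver, against 3.30, 3.39 and 3.37 in fat (-1.28 ± 0.26, adjusted p = 0.00431).

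The fat transcription factors ran the other way for 15 of 24 genes, with 6 higher in liver (median -1.24, or 0.204 over the genes above background on all 6 arrays). *Pparg*, required for adipocyte formation, stood at 3.04, 3.11 and 2.62 in liver, against 4.53, 4.54 and 4.62 in fat (-1.64 ± 0.17, adjusted p = 0.000185). *Ebf2* and *Ebf3*, early B-cell factors with roles in adipocytes, were at least 16.2-fold and 29.6-fold lower in liver (adjusted p = 5.09e-06 and 2.12e-06). *Klf15*, which drives amino acid breakdown and gluconeogenesis, was among those higher in liver, at 3.92, 4.06 and 4.49 in liver, against 1.34, 0.72 and 0.99 in fat (3.14 ± 0.23, adjusted p = 3.64e-05). *Srebf1*, the regulator of fatty acid synthesis, was higher in liver as well, by 2.32 ± 0.21, adjusted p = 9.28e-05. Of the 38 Hox genes on the array 19 were tested, of which 17 were lower in liver and 1 was higher. Their median was -3.06, or -1.99 with genes below background in liver set at their bound. For 12 of the 19 no liver array was well above background. Those 12 were tested through their fat arrays alone, so the count partly follows from the filter. *Hoxc6* and *Hoxa7*, which pattern the trunk, were at least 26-fold and 23.5-fold lower in liver (adjusted p = 2.12e-06 and 3.28e-06), since no liver array was well above background. *Hoxa3* stood at -3.04, -2.75 and -3.29 in liver, against -3.87, -3.54 and -3.48 in fat, a difference of 0.60 ± 0.19, adjusted p = 0.0298. It missed the threshold without liver replicate 1 or 2 or fat replicate 1 or 3, with an adjusted p of up to 0.0905.

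Clotting genes fell on both sides. Of 29 coagulation and fibrinolysis genes, 20 were higher in liver and 8 lower (median 8.82). *F2*, prothrombin, stood at 8.85, 9.0 and 8.35 in liver, against -0.50, 0.48 and -3.76 in fat (9.99 ± 1.01, adjusted p = 0.000163). *Plg*, plasminogen, stood at 8.37, 8.49 and 7.72 in liver, against -1.11, -0.25 and -3.97 in fat (9.97 ± 0.90, adjusted p = 9.63e-05). *Fga*, a fibrinogen chain whose promoter is shown above, was at least 699-fold higher in liver (adjusted p = 2.49e-05). The 8 on the other side include cell-borne members. *F13a1*, the transglutaminase subunit carried by macrophages and platelets, stood at -1.26, -1.19 and -0.92 in liver, against 4.33, 3.60 and 4.01 in fat (-5.10 ± 0.22, adjusted p = 4.95e-06). *Thbd*, the endothelial thrombin receptor, stood at 0.45, 0.43 and 0.20 in liver, against 4.37, 3.08 and 3.26 in fat (-3.21 ± 0.34, adjusted p = 0.000199). *Plau*, urokinase, stood at -3.66, -4.34 and -3.35 in liver, against 1.46, 1.16 and 1.33 in fat (-5.10 ± 0.26, adjusted p = 9.17e-06).

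Of 30 complement genes, 20 were higher in liver and 9 lower (median 1.66). The terminal components *C8a* and *C8b* were at least 545-fold and 248-fold higher in liver (adjusted p = 4.95e-05 and 3.38e-06), and *Hc*, complement C5, stood at 7.33, 7.47 and 7.41 in liver, against -0.90, -0.08 and -1.39 in fat (8.19 ± 0.32, adjusted p = 3.83e-06). The central component *C3* differed far less, at 9.95, 10.25 and 9.45 in liver, against 8.18, 7.88 and 8.27 in fat (1.77 ± 0.23, adjusted p = 0.000574). *Cfd*, adipsin, the protease that starts the alternative pathway and is secreted by adipocytes, stood at -0.94, 0.10 and -0.66 in liver, against 7.57, 7.38 and 7.34 in fat, a difference of -7.93 ± 0.27, adjusted p = 2.71e-06. The receptor genes *C3ar1* (-3.53) and *Itgam* (at least 10.8-fold) were lower in liver too.

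The acute phase list had 20 of 27 genes higher in liver and 3 lower (median 4.99). *Saa1* stood at 7.99, 8.24 and 8.08 in liver, against -0.96, -0.08 and -1.46 in fat (8.94 ± 0.34, adjusted p = 3.49e-06). *Saa3*, the serum amyloid A form made outside liver as well, stood at 4.88, 5.30 and 5.07 in liver, against 2.38, 3.20 and 2.96 in fat (2.23 ± 0.24, adjusted p = 0.000222). *Hamp*, hepcidin, the hormone that limits iron release, stood at 7.58, 7.91 and 7.99 in liver, against -2.01, -1.28 and -5.27 in fat (10.68 ± 0.97, adjusted p = 9.65e-05), with 2 of 3 fat arrays above background. *Lcn2*, lipocalin that binds bacterial siderophores, is often described as an adipokine and here stood at 2.93, 3.02 and 3.43 in liver, against -1.29, 0.29 and -0.40 in fat (3.59 ± 0.39, adjusted p = 0.000235). *Mt1* and *Mt2*, the metallothioneins, were lower in liver, with differences of -1.35 ± 0.18, adjusted p = 0.000579 and -1.56 ± 0.16, adjusted p = 0.000187.

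Lipoprotein genes were higher in liver for 23 of 34 genes and lower for 8 (median 5.07). *Apoa1*, the main HDL protein, stood at 8.42, 8.78 and 7.99 in liver, against -0.87, -0.05 and -4.56 in fat (10.23 ± 1.10, adjusted p = 0.000214). *Apoe*, made by macrophages as well as hepatocytes, stood at 9.76, 10.09 and 9.11 in liver, against 8.14, 8.40 and 8.32 in fat (1.36 ± 0.26, adjusted p = 0.00325). The lipases lay on both sides: *Lipc*, hepatic lipase, was at least 81-fold higher in liver (adjusted p = 2.52e-06), and *Lpl*, which frees fatty acids from circulating triglyceride, stood at 3.23, 3.02 and 2.74 in liver, against 7.42, 7.61 and 7.41 in fat (-4.49 ± 0.17, adjusted p = 3.38e-06). *Vldlr*, a lipoprotein receptor of fat and muscle, was lower in liver (difference -3.35 ± 0.15, adjusted p = 5.31e-06). *Apod*, an apolipoprotein of peripheral tissues, stood at -1.92, -5.23 and -5.09 in liver, against 0.66, 0.64 and 0.96 in fat (-4.83 ± 0.85, adjusted p = 0.00225).

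Cytochrome P450 genes of families 1 to 3 were higher in liver at 29 of 31 genes and lower at 2 (median 8.28). No fat array was well above background for 9 of the 31. *Cyp2d10* stood at 8.67, 8.77 and 8.53 in liver, against -1.29, 0.05 and -3.22 in fat (10.14 ± 0.75, adjusted p = 3.96e-05) and *Cyp2c40* at 6.85, 6.92 and 7.07 in liver, against -2.52, -2.07 and -4.03 in fat (9.82 ± 0.48, adjusted p = 7.13e-06). The exceptions were *Cyp1b1*, an extrahepatic P450 induced by aryl hydrocarbons, at -1.87, -1.74 and -1.45 in liver, against 2.42, 1.92 and 2.32 in fat (-3.90 ± 0.19, adjusted p = 7.74e-06), and *Cyp2s1*, at 0.80, -1.35 and 0.60 in liver, against 1.93, 1.42 and 1.49 in fat (-1.60 ± 0.56, adjusted p = 0.0398). *Cyp2s1* missed the threshold without any 1 of the fat arrays (adjusted p up to 0.113) and stood at -0.916 without liver replicate 2. Of 47 conjugation and transport genes, 44 were higher in liver and 1 lower, and 12 of the 47 were not well above background on any fat array. *Ugt2b1*, a glucuronosyltransferase, was at least 127-fold higher in liver (adjusted p = 7.80e-06). *Sult5a1*, a sulfotransferase, was the exception, at -1.49, -0.55 and -0.64 in liver, against 0.89, 0.49 and 0.43 in fat (-1.50 ± 0.28, adjusted p = 0.00313).

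All 24 bile acid genes tested were higher in liver (median 6.51, or 5.78 with genes below background in fat set at their bound). For 9 of the 24 no fat array was well above background, so those were tested through their liver arrays alone. *Cyp7a1*, the rate-limiting enzyme of the classical route, was at least 121-fold higher in liver (adjusted p = 1.22e-05), and *Cyp8b1*, which sets the share of cholic acid, at least 122-fold higher in liver (adjusted p = 6.55e-06). *Cyp27a1*, the first enzyme of the alternative route and present in macrophages, was well above background on all fat arrays, with 3.62, 3.61 and 3.12 in liver, against -0.31, -0.77 and -0.60 in fat (4.01 ± 0.20, adjusted p = 8.61e-06). *Abcb11*, the canalicular bile salt export pump, stood at 6.08, 6.13 and 5.72 in liver, against -3.41, -3.08 and -6.28 in fat (10.23 ± 0.81, adjusted p = 5.25e-05), with 1 fat array above background. The 17 genes known to be higher in male than in female liver were likewise all higher in liver than in fat. Of those 17, 7 were not well above background on any fat array and were tested through their liver arrays alone. *Mup3*, a major urinary protein, stood at 9.13, 9.57 and 8.94 in liver, against 1.73, 2.96 and -1.22 in fat (8.06 ± 0.98, adjusted p = 0.000392).

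Nitrogen disposal and amino acid breakdown accounted for 54 genes tested, with 49 higher in liver and 4 lower (median 7.61). *Cps1*, which starts the urea cycle, stood at 5.68, 5.93 and 6.88 in liver, against -2.99, -2.38 and -6.30 in fat (10.05 ± 0.99, adjusted p = 0.000144). *Arg1*, which ends it, stood at 7.11, 6.70 and 7.19 in liver, against -2.10, -1.53 and -2.10 in fat (8.91 ± 0.22, adjusted p = 2.12e-06). *Sds*, serine dehydratase, was at least 969.6-fold higher in liver (adjusted p = 1.87e-05), and *Hgd*, of tyrosine breakdown, at least 878-fold higher in liver (adjusted p = 2.12e-06). Among the 4 genes lower in liver were both branched-chain aminotransferases. *Bcat2*, the mitochondrial form, stood at -1.92, -1.81 and -2.16 in liver, against 0.23, 0.36 and -0.29 in fat (-2.06 ± 0.21, adjusted p = 0.000169). *Bcat1*, the cytosolic form, was at least 16.9-fold lower in liver (adjusted p = 5.13e-05). *Arg2*, the mitochondrial arginase, was at least 1.39-fold lower in liver (adjusted p = 0.0141).

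At several steps of sugar and fat metabolism the members of 1 gene family lay on opposite sides, and the plot of isoenzymes shows 12 such families. Of the glucose carriers, *Slc2a2*, which lets glucose out of hepatocytes, stood at 5.07, 5.05 and 5.39 in liver, against -3.47, -3.70 and -4.75 in fat (9.15 ± 0.34, adjusted p = 3.31e-06), with 1 fat array above background. *Slc2a4*, the insulin-responsive carrier of fat and muscle, stood at 0.39, 0.52 and 0.18 in liver, against 4.46, 3.74 and 4.19 in fat (-3.77 ± 0.21, adjusted p = 1.35e-05). The hexokinases *Hk1*, *Hk2* and *Hk3*, which phosphorylate glucose, were lower in liver, with differences of -1.83 ± 0.14, adjusted p = 5.29e-05, -2.19 ± 0.18, adjusted p = 6.68e-05 and -2.41 ± 0.30, adjusted p = 0.00044.

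**Figure D2:**
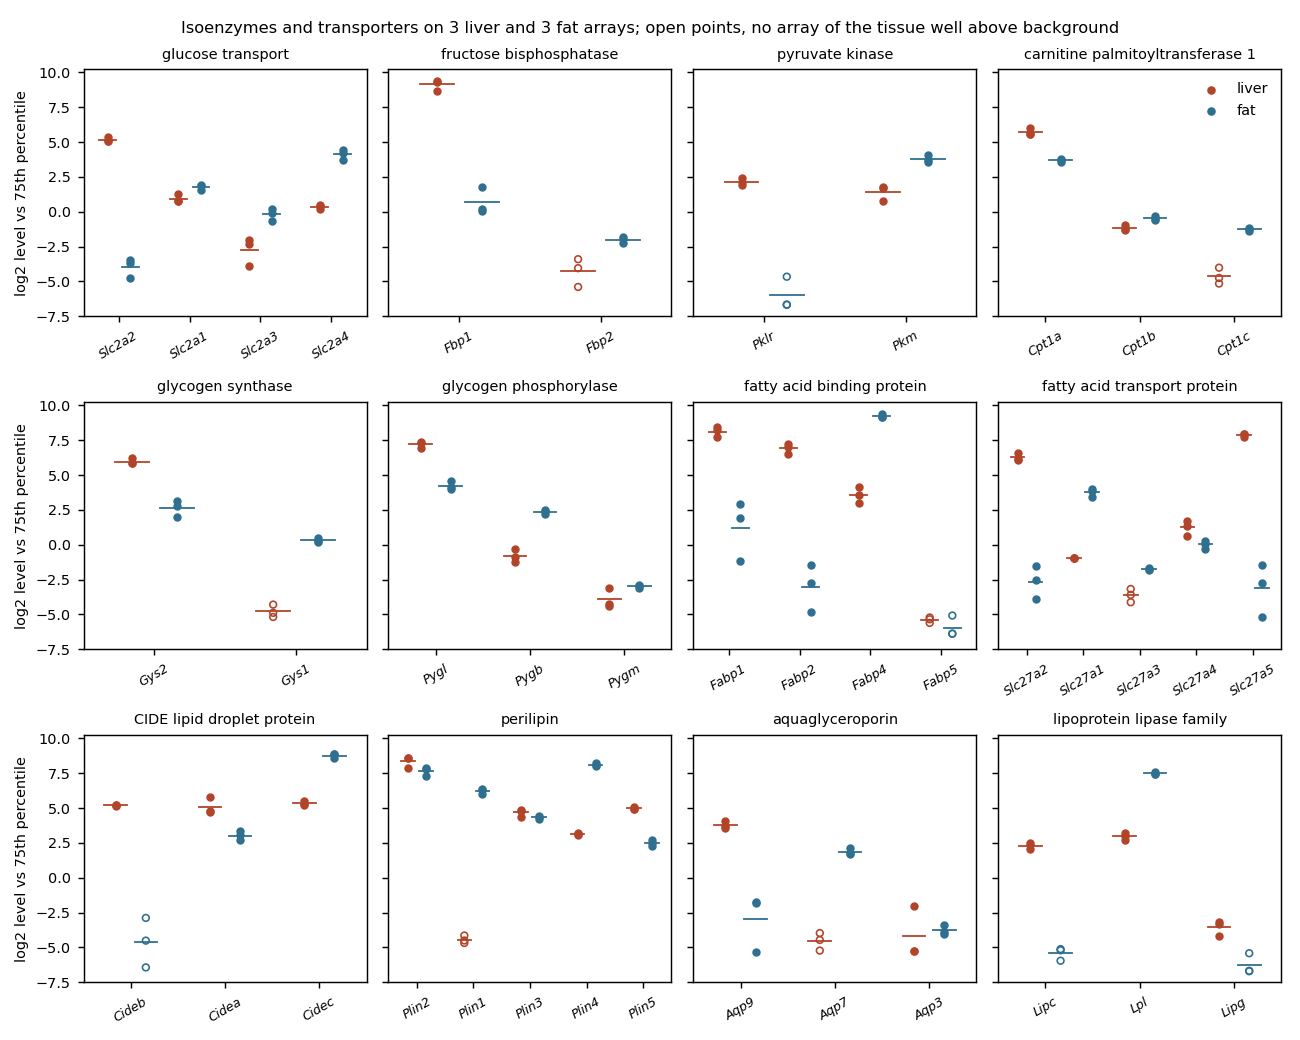
Level on each array (log2 relative to the 75th percentile, vertical axis) for 12 sets of isoenzymes or transporters, with liver at the left of each gene and fat at the right, bars at the mean of 3 arrays, and open points where no array of the tissue was well above background. *Slc2a2*, *Fbp1*, *Cpt1a* and *Pklr* were higher in liver, and *Slc2a4*, *Fbp2*, *Cpt1b* and *Pkm* were lower in liver than in fat.

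Further along glycolysis, *Aldoa*, the aldolase of muscle and many other tissues, stood at 7.22, 7.34 and 7.16 in liver, against 8.73, 9.07 and 9.10 in fat (-1.73 ± 0.16, adjusted p = 9.61e-05). *Pklr*, the pyruvate kinase of liver and red cells, was at least 73.2-fold higher in liver (adjusted p = 2.59e-05), while *Pkm* stood at 1.77, 0.78 and 1.73 in liver, against 3.58, 3.72 and 4.06 in fat (-2.36 ± 0.30, adjusted p = 0.000476). The reverse path had 23 of its 26 glucose production and glycogen genes higher in liver (median 5.18) and 2 lower. *G6pc*, the phosphatase that frees glucose, stood at 5.47, 5.69 and 5.99 in liver, against -3.04, -1.91 and -4.44 in fat (8.85 ± 0.59, adjusted p = 2.61e-05). *Fbp1* stood at 9.30, 9.40 and 8.69 in liver, against 0.23, 1.77 and 0.04 in fat (8.45 ± 0.48, adjusted p = 1.29e-05). The 2 lower genes were *Pck2*, the mitochondrial carboxykinase, at 0.29, 0.06 and -0.07 in liver, against 1.98, 1.88 and 1.88 in fat (-1.82 ± 0.15, adjusted p = 5.67e-05), and *Fbp2*, the muscle bisphosphatase, at least 2.68-fold lower in liver (adjusted p = 0.00511). *Gys2* and *Pygl*, the liver forms of glycogen synthase and phosphorylase, were higher in liver by 3.33 ± 0.31, adjusted p = 0.000106 and 2.96 ± 0.20, adjusted p = 2.59e-05. Their relatives *Gys1* and *Pygb* were lower in liver, *Gys1* at least 13.3-fold and *Pygb* by -3.17 ± 0.25, adjusted p = 5.75e-05. *Ldhb*, lactate dehydrogenase B, was lower in liver (difference -2.78 ± 0.19, adjusted p = 2.61e-05) and *Ldha* higher (difference 1.35 ± 0.19, adjusted p = 0.000709).

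Fatty acid oxidation and ketone production had 37 of 46 genes higher in liver and 5 lower (median 2.07). *Oxct1*, which lets tissues burn ketone bodies and is known to be scarce in hepatocytes, stood at 2.02, 1.92 and 1.53 in liver, against 5.77, 5.78 and 5.93 in fat (-4.0 ± 0.17, adjusted p = 4.96e-06). *Cpt1a*, the liver form of the carnitine transferase, was higher in liver by 2.0 ± 0.17, adjusted p = 6.69e-05, and the forms *Cpt1b* and *Cpt1c* were lower, *Cpt1b* by -0.70 ± 0.16, adjusted p = 0.00652 and *Cpt1c* at least 4.48-fold. *Acot12*, an acetyl-CoA thioesterase, was at least 262-fold higher in liver (adjusted p = 3.28e-06). *Pdk4*, which shuts off pyruvate oxidation, was lower in liver, at -0.28, 0.23 and -0.21 in liver, against 3.12, 2.54 and 3.29 in fat (-3.07 ± 0.25, adjusted p = 5.78e-05).

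The handling of fatty acids and glycerol was divided in the same manner. *Fabp1*, the liver fatty acid binding protein, stood at 8.21, 8.43 and 7.72 in liver, against 1.93, 2.91 and -1.14 in fat (6.89 ± 0.97, adjusted p = 0.000765). *Fabp4*, the adipocyte form, stood at 3.03, 3.54 and 4.12 in liver, against 9.15, 9.41 and 9.17 in fat (-5.68 ± 0.28, adjusted p = 7.45e-06). The transport proteins *Slc27a2* and *Slc27a5*, which also activate very-long-chain fatty acids and bile acids, were higher in liver by 8.96 ± 0.56, adjusted p = 1.99e-05 and 10.97 ± 0.86, adjusted p = 5.08e-05. For *Slc27a5* 2 of 3 fat arrays were above background. *Slc27a1*, the insulin-sensitive transporter of fat, stood at -0.97, -0.93 and -0.92 in liver, against 3.42, 3.87 and 3.98 in fat (-4.70 ± 0.18, adjusted p = 3.49e-06). *Aqp9*, through which liver takes up glycerol, stood at 3.70, 3.60 and 4.09 in liver, against -1.82, -1.75 and -5.30 in fat (6.75 ± 0.93, adjusted p = 0.000679), with 2 of 3 fat arrays above background. Its fat replicate 4 lay far below the other fat arrays, and the difference was 5.58 without that array. *Aqp7*, through which adipocytes release glycerol, was at least 39-fold lower in liver (adjusted p = 8.50e-06). *Acsl1*, an acyl-CoA synthetase of both tissues, overlapped and did not pass the test, at 7.11, 6.96 and 7.03 in liver, against 6.87, 7.14 and 7.24 in fat (-0.05 ± 0.15, adjusted p = 0.788). It was called lower in liver with quantile normalization (-1.15, adjusted p = 0.000629) and in a fit of the authors' deposited table (-0.903, adjusted p = 0.00646).

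Lipid droplet and lipolysis genes gave 10 higher in liver and 16 lower among 32 (median -0.36, or 0.00318 over the genes above background on all 6 arrays). Over all tested genes the shares were 34.7% higher and 33.0% lower. *Plin1*, the gatekeeper of the adipocyte droplet, stood at -4.14, -4.68 and -4.50 in liver, against 6.30, 6.02 and 6.38 in fat and was at least 809-fold lower in liver (adjusted p = 1.53e-06). *Plin4* stood at 3.06, 3.23 and 3.14 in liver, against 8.10, 7.99 and 8.23 in fat (-4.96 ± 0.14, adjusted p = 2.12e-06). *Plin5*, of oxidative tissues, stood at 4.92, 5.10 and 4.92 in liver, against 2.25, 2.48 and 2.70 in fat (2.50 ± 0.16, adjusted p = 2.25e-05). *Plin2*, the common droplet coat, stood at 8.55, 8.62 and 7.85 in liver, against 7.31, 7.90 and 7.79 in fat, which overlapped and did not pass (0.67 ± 0.27, adjusted p = 0.0595). It was called higher in liver in 5 of 25 other settings, with 0.921 and an adjusted p of 0.0114 without liver replicate 3. All 3 CIDE genes, which fuse droplets or load lipoproteins, were detected in liver. *Cideb*, the hepatocyte form, was at least 564-fold higher in liver (adjusted p = 6.36e-05). *Cidea* was higher in liver than in fat, at 4.76, 5.82 and 4.71 in liver, against 3.03, 2.71 and 3.32 in fat (2.08 ± 0.34, adjusted p = 0.0015). *Cidec* was lower, at 5.27, 5.54 and 5.22 in liver, against 8.59, 8.86 and 8.84 in fat (-3.42 ± 0.16, adjusted p = 5.99e-06), while well above background on every liver array. Both *Cidea* and *Cidec* are low in lean liver, as background, and no lean liver was measured here.

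Fatty acid and triglyceride synthesis had 23 of 35 genes higher in liver and 8 lower (median 1.0). *Elovl2*, which lengthens polyunsaturated fatty acids, was at least 433-fold higher in liver (adjusted p = 4.15e-05), and *Elovl3* at least 27.1-fold higher in liver (adjusted p = 2.43e-05). *Acly* and *Acaca*, at the entry of the pathway, were close between the tissues, with differences of 1.0 ± 0.15, adjusted p = 0.000983 and 1.0 ± 0.23, adjusted p = 0.00761. *Scd2*, a desaturase of non-hepatic tissues, stood at 1.16, 1.32 and 0.88 in liver, against 4.23, 4.30 and 3.79 in fat (-2.98 ± 0.20, adjusted p = 2.59e-05). *Fads3* stood at -0.01, 0.17 and -0.55 in liver, against 5.57, 5.60 and 5.68 in fat (-5.75 ± 0.21, adjusted p = 3.03e-06). *Pnpla3*, a triglyceride hydrolase of droplets, was at least 8.23-fold lower in liver (adjusted p = 9.87e-05). Cholesterol synthesis and uptake had 21 of 27 genes higher in liver, with the other 6 not called (median 1.75). *Acat2*, the cytosolic thiolase that condenses acetyl-CoA at the start of the path, stood at 6.40, 6.23 and 5.76 in liver, against -1.42, -0.50 and -0.98 in fat (7.10 ± 0.28, adjusted p = 4.00e-06).

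**Figure D3:**
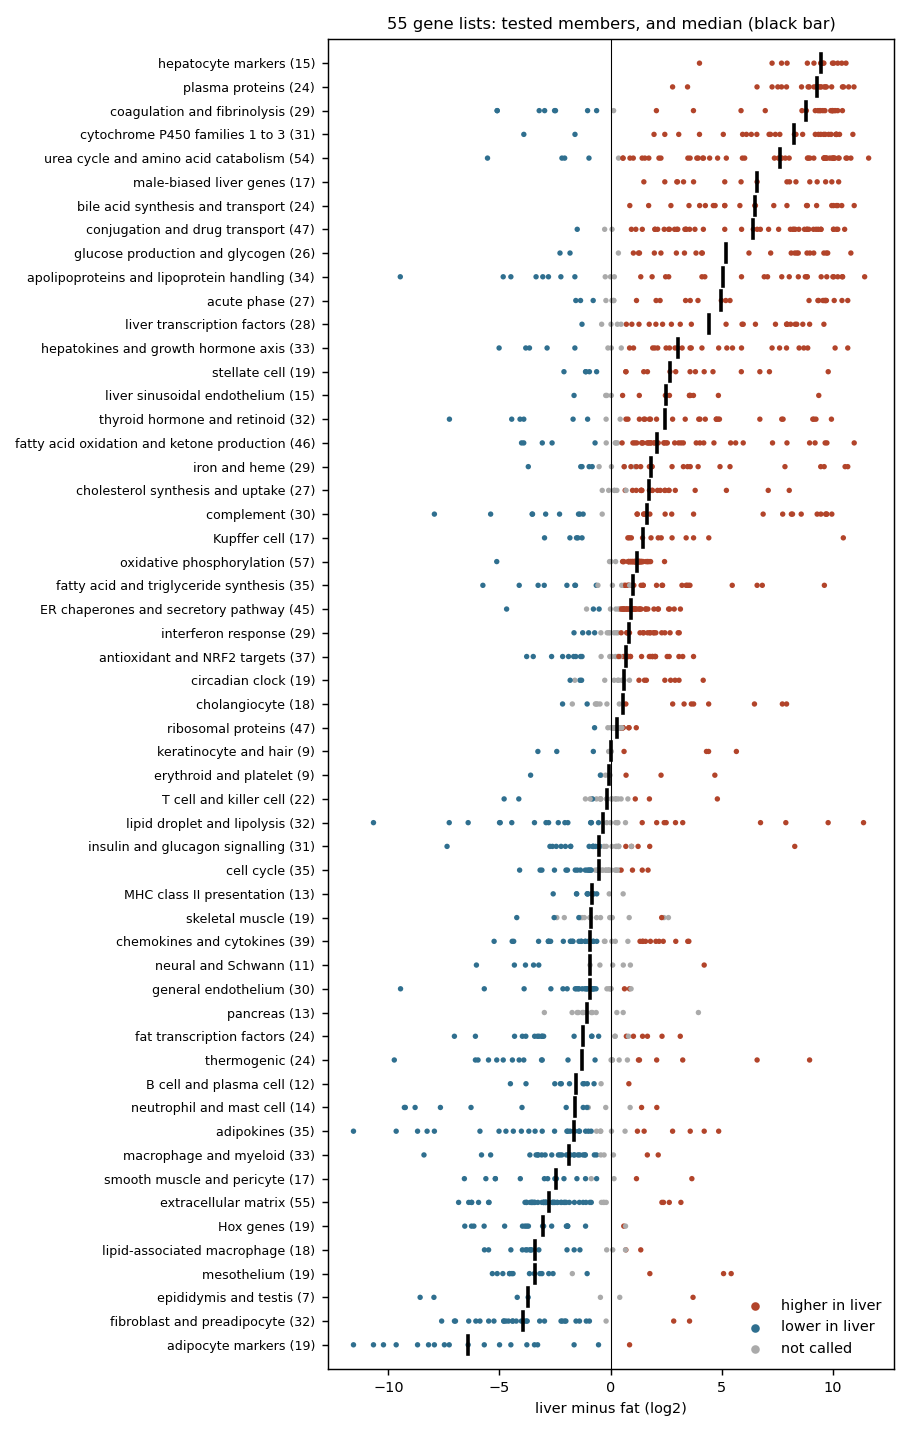
Liver minus fat (log2, horizontal axis) for every tested member of 55 gene lists, 1 row a list, with the number of tested genes in brackets and a black bar at the median. Hepatocyte markers lie at the top with a median of 9.48 and adipocyte markers at the bottom with -6.41, and most points of the metabolic lists are at the right of 0 while those of the matrix and fibroblast lists are at the left.

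Adipocyte markers were lower in liver at 18 of 19 genes (median -6.41, or -5.39 with genes below background in liver set at their bound). No liver array was well above background for 7 of the 19. *Adipoq*, adiponectin, stood at -3.22, -4.55 and -3.20 in liver, against 7.97, 7.83 and 7.92 in fat, a difference of -11.57 ± 0.37, adjusted p = 2.29e-06, with 2 liver arrays above background. *Lep*, leptin, was at least 268-fold lower in liver (adjusted p = 4.58e-06), *Retn*, resistin, at least 298-fold lower in liver (adjusted p = 3.59e-06), and *Sncg*, a synuclein of adipocytes and neurons, at least 380.5-fold lower in liver (adjusted p = 3.31e-06). The 3 fat arrays agreed closely for these hormones, with *Lep* at 4.72, 4.53 and 4.66 and *Retn* at 4.89, 4.66 and 4.83. *Prkar2b*, a regulatory subunit of protein kinase A in fat and brain, stood at -0.90, -0.83 and -0.96 in liver, against 6.45, 6.42 and 6.51 in fat (-7.36 ± 0.12, adjusted p = 1.53e-06). *Cav1*, the coat protein of caveolae, stood at -0.56, -0.38 and -0.01 in liver, against 7.15, 6.93 and 6.89 in fat (-7.30 ± 0.18, adjusted p = 2.12e-06). *Mest*, an imprinted gene that tracks fat expansion, stood at -1.18, -1.40 and -0.60 in liver, against 4.90, 5.15 and 5.21 in fat (-6.14 ± 0.23, adjusted p = 3.38e-06). *Ghr*, the growth hormone receptor, was the 1 exception, higher in liver by 0.86 ± 0.16, adjusted p = 0.00276, and it stood at -0.139 with quantile normalization (adjusted p = 0.578). Of 35 adipokine genes, 24 were lower in liver and 6 higher. *Agt*, angiotensinogen, was among the 6, at 7.0, 6.95 and 6.96 in liver, against 2.79, 1.91 and 1.60 in fat (4.87 ± 0.30, adjusted p = 1.86e-05). *Serpina12*, vaspin, was at least 5.86-fold higher in liver (adjusted p = 7.10e-05).

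Genes of hepatokines and the growth hormone axis were higher in liver at 25 of 33 and lower at 5 (median 3.02). *Igf1*, made in liver under growth hormone and in fat as well, stood at 6.71, 7.29 and 7.07 in liver, against 4.89, 5.28 and 5.20 in fat (1.90 ± 0.20, adjusted p = 0.000189). *Igfbp1*, an insulin-repressed binding protein whose promoter is shown above, stood at 3.69, 4.52 and 3.99 in liver, against -6.53, -1.34 and -2.76 in fat (7.61 ± 1.22, adjusted p = 0.00145). *Igfbp5* and *Igfbp6* were lower in liver, with differences of -3.65 ± 0.19, adjusted p = 9.03e-06 and -5.01 ± 0.16, adjusted p = 2.36e-06. Among insulin and glucagon signalling genes, 5 of 31 were higher in liver and 16 lower. *Gcgr*, the glucagon receptor, stood at 7.08, 7.39 and 6.58 in liver, against -0.93, -0.88 and -2.02 in fat (8.29 ± 0.36, adjusted p = 5.25e-06). *Insr*, the insulin receptor, stood at 0.25, -0.31 and 1.16 in liver, against -0.47, -1.23 and -0.92 in fat (1.24 ± 0.39, adjusted p = 0.0273), and missed the threshold without liver replicate 1 or fat replicate 3 or 4 (adjusted p up to 0.0834). *Irs1*, its main substrate, overlapped and did not pass, at 1.47, 1.61 and 1.39 in liver, against 1.58, 0.58 and 1.21 in fat (0.37 ± 0.26, adjusted p = 0.254).

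Genes of oxidative phosphorylation were higher in liver at 53 of 57, by small amounts (median 1.18, and as low as 0.221 over the other settings). *Cyc1* of complex III stood at 6.82, 6.79 and 6.84 in liver, against 4.78, 5.17 and 5.09 in fat (1.80 ± 0.15, adjusted p = 6.91e-05) and *Atp5g1* of the ATP synthase at 6.50, 6.54 and 6.21 in liver, against 3.75, 4.21 and 4.0 in fat (2.43 ± 0.18, adjusted p = 3.67e-05). *Cox8b*, a subunit form of heart, muscle and brown fat, was the 1 gene lower in liver, at -0.92, -2.32 and 0.26 in liver, against 3.75, 4.20 and 4.43 in fat (-5.12 ± 0.61, adjusted p = 0.000354), and its 3 liver values had the same order as the muscle marker means given below, whose part was not tested. Thermogenic genes gave 6 higher and 13 lower among 24, beside 34.7% and 33.0% of all tested genes. Their median was -1.30, or 0.237 over the genes above background on all 6 arrays. *Ucp1*, the uncoupling protein of brown and beige adipocytes, was at least 17.5-fold lower in liver (adjusted p = 1.75e-05), with fat values of 1.33, 0.78 and -0.01. *Slc36a2*, an amino acid carrier of adipocytes, was at least 202-fold lower in liver (adjusted p = 2.12e-06). *Dio2*, which makes active thyroid hormone in brown fat, was at least 3.32-fold lower in liver (adjusted p = 6.67e-05), while *Dio1*, the liver form, stood at 5.54, 5.31 and 5.67 in liver, against -4.27, -2.53 and -4.0 in fat (9.11 ± 0.45, adjusted p = 7.35e-06).

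Genes of the matrix and of stromal cell lists formed the other large block of genes lower in liver, and their cell source was not tested. Of 55 extracellular matrix genes, 47 were lower in liver and 4 higher (median -2.79). *Col1a1*, the main fibrillar collagen, stood at 1.96, 2.39 and 2.10 in liver, against 4.19, 3.50 and 4.31 in fat (-1.85 ± 0.25, adjusted p = 0.000605). *Col3a1* stood at 2.93, 2.97 and 3.44 in liver, against 5.58, 5.29 and 5.65 in fat (-2.39 ± 0.19, adjusted p = 6.00e-05). *Mmp3*, stromelysin, was at least 26.7-fold lower in liver (adjusted p = 0.000105). The 4 higher in liver include *Fn1*, fibronectin, whose plasma form is made by hepatocytes, at 4.98, 4.56 and 3.99 in liver, against 2.22, 1.64 and 2.53 in fat (2.38 ± 0.32, adjusted p = 0.000656). *Col18a1*, the source of endostatin, stood at 8.18, 8.21 and 7.84 in liver, against 5.11, 4.70 and 4.92 in fat (3.17 ± 0.18, adjusted p = 1.22e-05). Fibroblast and preadipocyte markers were lower at 29 of 32 genes and higher at 2 (median -3.95). No liver array was well above background for 10 of the 32. *Pdgfra*, which marks the adipocyte precursors, stood at -0.18, -0.25 and -0.38 in liver, against 2.53, 0.96 and 1.74 in fat (-2.01 ± 0.37, adjusted p = 0.00289). *Clec3b*, tetranectin, was at least 85-fold lower in liver (adjusted p = 3.82e-05). *Dpp4*, a marker of early precursors that hepatocytes carry on the canalicular face, was higher in liver, by 2.85 ± 0.28, adjusted p = 0.000143.

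Mesothelium markers were lower in liver at 15 of 19 genes and higher at 3. *Msln*, mesothelin, stood at -0.35, -0.01 and -0.33 in liver, against 3.13, 2.70 and 2.74 in fat (-3.09 ± 0.18, adjusted p = 1.53e-05). *Upk3b* stood at -3.58, -2.99 and -3.18 in liver, against 1.92, 1.52 and 1.36 in fat (-4.85 ± 0.22, adjusted p = 5.99e-06). The 3 higher in liver were *Krt8* and *Krt18*, the keratins of hepatocytes, with differences of 5.43 ± 0.37, adjusted p = 2.61e-05 and 5.09 ± 0.44, adjusted p = 8.14e-05, and *C3*. Smooth muscle and pericyte markers were lower at 13 of 17 genes. *Myh11*, the smooth muscle myosin, stood at -1.24, -2.11 and -1.16 in liver, against 3.74, 2.99 and 0.94 in fat (-4.06 ± 0.70, adjusted p = 0.00204). Its difference was -4.87 without fat replicate 4 and -2.45 with that fat array alone, where 8 of the 17 genes were lower and the list's median was -1.08, against -2.43 with all 3. *Itga8*, an integrin that stellate cells carry, was 1 of 2 higher in liver, at 0.98, 0.92 and 1.09 in liver, against -2.17, -3.52 and -2.31 in fat (3.66 ± 0.35, adjusted p = 0.000132).

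Macrophage and myeloid markers were lower in liver at 28 of 33 genes and higher at 2 (median -1.85), although liver has its own resident macrophages. *Adgre1*, the surface marker of mouse macrophages, stood at 3.55, 3.11 and 2.67 in liver, against 5.17, 5.35 and 5.38 in fat (-2.19 ± 0.24, adjusted p = 0.000214). *Cd68*, a lysosomal glycoprotein, stood at 2.58, 2.37 and 2.07 in liver, against 5.03, 5.98 and 5.82 in fat (-3.27 ± 0.28, adjusted p = 7.69e-05). *Clec10a*, a galactose lectin of alternatively activated macrophages, stood at -1.72, -1.80 and -1.58 in liver, against 4.45, 3.92 and 3.96 in fat (-5.81 ± 0.18, adjusted p = 2.29e-06). *Retnla* stood at -2.89, -5.33 and -2.50 in liver, against 5.74, 4.53 and 4.20 in fat (-8.40 ± 0.79, adjusted p = 0.000113). Of 18 markers of the lipid-associated macrophage, 13 were lower in liver and 2 higher. *Trem2*, the lipid-sensing receptor that defines that state, stood at 3.81, 3.18 and 3.18 in liver, against 6.39, 7.27 and 7.15 in fat (-3.55 ± 0.29, adjusted p = 6.55e-05). *Gpnmb* stood at 2.31, 0.75 and 1.73 in liver, against 3.73, 6.26 and 6.23 in fat (-3.81 ± 0.75, adjusted p = 0.00374). *Ctsk*, cathepsin K, stood at -1.49, -2.32 and -1.95 in liver, against 3.18, 3.95 and 4.13 in fat (-5.67 ± 0.32, adjusted p = 1.23e-05). *Mmp12*, macrophage elastase, stood at -3.77, -5.36 and -3.27 in liver, against 0.47, 2.06 and 1.52 in fat (-5.49 ± 0.62, adjusted p = 0.000271). Fat values were the higher ones on every array.

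Kupffer cell markers ran against the other macrophage genes, with 12 of 17 higher in liver and 5 lower (median 1.44). *Clec4f*, a lectin of mouse Kupffer cells, was at least 485-fold higher in liver (adjusted p = 2.81e-06). *Vsig4*, a complement receptor, stood at 2.61, 2.02 and 2.03 in liver, against -1.21, -1.41 and -0.95 in fat (3.40 ± 0.22, adjusted p = 2.16e-05). *Cd5l* stood at 7.25, 6.82 and 6.27 in liver, against 1.97, 2.77 and 2.33 in fat (4.42 ± 0.31, adjusted p = 3.07e-05). *Marco*, a scavenger receptor, stood at 5.06, 3.90 and 3.23 in liver, against 1.47, 1.71 and 2.57 in fat (2.15 ± 0.50, adjusted p = 0.00811). *Timd4*, of resident macrophages, stood at -0.79, -2.01 and -2.09 in liver, against -3.83, -4.23 and -3.68 in fat (2.28 ± 0.37, adjusted p = 0.00153). *Folr2*, also found on resident macrophages of fat, was lower in liver, at 2.94, 2.54 and 2.07 in liver, against 4.16, 4.30 and 4.58 in fat (-1.83 ± 0.25, adjusted p = 0.000656).

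Lymphocyte markers differed by type. Of 22 T cell and killer cell genes, 3 were higher in liver, 3 were lower and 16 were not called. *Cd3d* stood at -0.79, 1.13 and 0.53 in liver, against 0.82, 0.37 and 1.0 in fat, overlapped and did not pass (-0.44 ± 0.48, adjusted p = 0.442). *Cd3e*, another chain of the same receptor complex, was higher in liver by 1.11 ± 0.15, adjusted p = 0.000668, and *Cd3g* did not pass (-0.16 ± 0.59, adjusted p = 0.83). Both uncalled chains changed sign without liver replicate 1, *Cd3d* to 0.097 and *Cd3g* to 0.567. *Il1rl1*, the receptor of IL-33 on regulatory T cells and mast cells, was at least 18.9-fold lower in liver (adjusted p = 1.81e-05). B cell and plasma cell genes were lower in liver at 10 of 12. *Ms4a1*, CD20, stood at -1.95, -2.10 and -2.14 in liver, against 0.42, -0.45 and 0.61 in fat (-2.26 ± 0.28, adjusted p = 0.000446). *Jchain*, which joins secreted IgA and IgM, stood at -1.01, -0.49 and -0.28 in liver, against 4.37, 3.17 and 4.20 in fat (-4.51 ± 0.36, adjusted p = 5.40e-05). Of 13 genes of MHC class II presentation, 11 were lower in liver by small amounts and the other 2 were not called. Among the 11 was *H2-Ab1* at 5.61, 6.22 and 5.68 in liver, against 6.58, 6.46 and 6.73 in fat (-0.75 ± 0.20, adjusted p = 0.0142), which missed the threshold without fat replicate 4 (adjusted p = 0.0515).

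Of 14 neutrophil and mast cell genes tested, 9 were lower in liver and 2 higher (median -1.61). For 6 of the 14 no liver array was well above background. The mast cell proteases were among the genes with the largest bounds in the direction of fat. *Cma1*, chymase, was at least 393-fold lower in liver (adjusted p = 2.12e-06), *Mcpt4* at least 381-fold lower in liver (adjusted p = 3.38e-06), and *Cpa3* at least 161-fold lower in liver (adjusted p = 2.29e-06). Their fat values were 4.79, 5.40 and 5.40 for *Cma1* and 3.62, 4.01 and 4.08 for *Cpa3*. *S100a9*, of neutrophils, was higher in liver, at 3.04, 3.56 and 3.67 in liver, against 1.16, 1.31 and 1.54 in fat (2.08 ± 0.21, adjusted p = 0.000161). Chemokines and cytokines gave 11 higher and 22 lower among 39 genes, beside 34.7% and 33.0% of all tested genes. *Ccl2*, which recruits monocytes, stood at 1.53, 1.75 and 1.91 in liver, against 3.04, 3.30 and 3.09 in fat (-1.42 ± 0.16, adjusted p = 0.000257). *Ccl8* stood at -1.28, -0.57 and -0.10 in liver, against 4.33, 4.61 and 4.83 in fat (-5.24 ± 0.31, adjusted p = 1.63e-05). *Cxcl1* stood at 1.17, 1.57 and 1.53 in liver, against -2.42, -1.98 and -1.91 in fat (3.53 ± 0.20, adjusted p = 1.34e-05) and *Il1b* at -0.82, -1.06 and -0.97 in liver, against -3.81, -4.27 and -3.57 in fat (2.94 ± 0.21, adjusted p = 3.16e-05). Interferon response genes were higher in liver at 18 of 29 and lower at 4 (median 0.85), with *Bst2*, tetherin, at 6.38, 6.37 and 6.16 in liver, against 3.22, 3.24 and 3.32 in fat (3.04 ± 0.13, adjusted p = 5.20e-06).

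Endothelial genes differed by type. Of 15 markers of the liver sinusoidal endothelium, 11 were higher in liver and 1 lower (median 2.50). *Clec4g* stood at 5.66, 5.58 and 5.35 in liver, against -3.88, -3.65 and -4.01 in fat (9.38 ± 0.16, adjusted p = 1.53e-06). *Stab2*, a hyaluronan scavenger receptor, stood at 3.08, 3.11 and 3.06 in liver, against -0.31, -0.73 and -0.52 in fat (3.60 ± 0.15, adjusted p = 4.76e-06). *Stab1*, its relative on macrophages too, was the exception at 3.15, 3.05 and 2.66 in liver, against 4.51, 4.48 and 4.78 in fat (-1.64 ± 0.18, adjusted p = 0.000249). Of 30 general endothelial genes, 22 were lower in liver and 2 higher. *Pecam1*, CD31, stood at -0.79, -1.54 and -1.71 in liver, against 0.57, 0.41 and 0.83 in fat (-1.95 ± 0.27, adjusted p = 0.000696). *Rgcc* stood at -3.15, -3.84 and -1.95 in liver, against 6.67, 6.30 and 6.45 in fat (-9.45 ± 0.45, adjusted p = 7.00e-06). Stellate cell genes were higher at 14 of 19 and lower at 5. *Lrat*, which esterifies retinol for storage, was at least 29.5-fold higher in liver (adjusted p = 9.02e-06), and *Reln*, reelin, stood at 3.02, 3.14 and 3.40 in liver, against -1.21, -2.34 and -0.74 in fat (4.61 ± 0.40, adjusted p = 7.75e-05). *Pdgfrb* and *Dcn*, which fat fibroblasts share, were lower in liver, with differences of -0.95 ± 0.23, adjusted p = 0.00912 and -1.10 ± 0.18, adjusted p = 0.00156. The bile duct keratins *Krt19* and *Krt7* stood at 1.85, -0.70 and 0.70 in liver, against 2.94, 2.52 and 1.54 in fat and at 0.83, 0.09 and -0.18 in liver, against 1.53, 1.22 and 1.15 in fat, overlapping for *Krt19*, which did not pass, and lower in liver for *Krt7*. *Krt19* was called lower in 10 of 25 other settings, among them the slide as a fixed block (-2.12, adjusted p = 0.00115) and the replicate block (-1.46, adjusted p = 0.00583). Mesothelium expresses both, and the median of the 18 cholangiocyte genes (9 higher, 2 lower) was 0.54, -0.402 over the genes above background on all 6 arrays and 1.7 with fat replicate 4 alone.

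The remaining lists hold programs that most cells run. Genes of ER chaperones and the secretory pathway were higher in liver at 35 of 45 and lower at 3 (median 0.94). *Herpud1*, of ER-associated degradation, stood at 6.01, 5.90 and 6.05 in liver, against 2.71, 2.94 and 2.87 in fat (3.15 ± 0.13, adjusted p = 4.86e-06). *Asns*, asparagine synthetase, was the largest exception at -0.90, -0.72 and -0.71 in liver, against 3.89, 3.65 and 4.15 in fat (-4.68 ± 0.17, adjusted p = 3.09e-06). *Phgdh*, which opens serine synthesis, and *Slc1a5*, a glutamine carrier, were also among the 10 genes furthest in the direction of fat on probes well above background on all 6 arrays. They stood at -1.71, -0.56 and -0.66 in liver, against 5.90, 5.47 and 5.75 in fat (-6.68 ± 0.33, adjusted p = 7.31e-06) and -1.65, -1.09 and -0.67 in liver, against 6.04, 5.69 and 5.99 in fat (-7.04 ± 0.26, adjusted p = 3.31e-06). Antioxidant genes gave 22 higher and 9 lower among 37 (median 0.69, and as low as -0.179 over the other settings). *Cat*, catalase, stood at 6.50, 6.38 and 6.89 in liver, against 4.51, 4.54 and 4.64 in fat (2.03 ± 0.17, adjusted p = 7.17e-05), *Gpx1* was higher by 1.75 ± 0.24, adjusted p = 0.000653, and *Gpx3*, the secreted peroxidase, was lower in liver (difference -3.48 ± 0.15, adjusted p = 4.63e-06). *G6pdx*, which supplies NADPH, was lower in liver, at 1.62, 1.68 and 1.76 in liver, against 5.37, 5.47 and 5.54 in fat (-3.77 ± 0.13, adjusted p = 2.66e-06). Clock genes gave 8 higher and 3 lower among 19, beside 34.7% and 33.0% of all tested genes. *Arntl* was lower (difference -1.38 ± 0.39, adjusted p = 0.0182, adjusted p = 0.0567 without liver replicate 3). The hour of sampling is not given in the sources used here. Of 35 cell cycle genes, 16 were lower in liver and 4 higher, with *Mki67*, a proliferation marker, at 0.10, 0.20 and 0.18 in liver, against 1.48, 1.71 and 1.77 in fat (-1.49 ± 0.14, adjusted p = 0.000112). Of 47 ribosomal protein genes, 11 were higher, 1 was lower and 35 were not called, and the sign of their median (0.288) turned with quantile normalization (-0.749). With fat replicate 4 alone none of the 47 was called.

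Transcripts of tissues that are neither liver nor fat set some arrays apart. On liver replicate 3 the 22 pancreas genes averaged 1.99 and on replicates 1 and 2 they averaged -2.27 and -2.80, against -1.25, -1.13 and -1.50 on the fat arrays. The lipase gene *Pnlip* stood at -2.66, -1.98 and 4.34 in liver, against 1.82, 0.92 and 2.16 in fat, and was lower in liver without liver replicate 3 (-3.95, adjusted p = 0.000709). The elastase gene *Cela3b* stood at 0.11, -2.35 and 6.59 in liver, against -2.76, -2.31 and -2.46 in fat, a difference of 3.96 ± 2.08, adjusted p = 0.133 that did not pass. It was called higher in liver in 4 of 25 other settings, among them the replicate block (5.88, adjusted p = 0.000714) and without liver replicate 2 (5.86, adjusted p = 0.0312), and stood at 1.39 without liver replicate 3. No call was made by limma among the 13 pancreas genes tested, of which 0 had an unadjusted p below 0.05, whereas 12 of the 13 were lower in liver without liver replicate 3 (median -3.01, against -1.08 with it). On the 3 knockout liver arrays the same list averaged 2.50, 2.41 and 2.96, so pancreas transcripts were high on 4 of 6 liver arrays.

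The 24 skeletal muscle genes averaged -2.05, -3.80 and -0.69 on the liver arrays and -1.79, -1.73 and -2.02 on the fat arrays. Of the 41 epididymis and testis genes, 10, 7 and 8 were well above background on the fat arrays, and the bright ones were uneven. *Crisp1*, a sperm-binding protein of the epididymis, stood at 5.50, 5.05 and -1.73 in fat, and *Spink8* at 5.67, 5.62 and -1.11. *Akr1b7*, an aldose reductase-like enzyme of vas deferens and adrenal that fat is known to express, gave the largest difference in the direction of fat among genes measured on all 6 arrays, at -1.99, -2.46 and -2.34 in liver, against 8.46, 8.22 and 2.42 in fat (-8.62 ± 1.54, adjusted p = 0.00241). Its fat replicate 4 lay far below the other fat arrays and still above every liver array. The difference was -10.6 without it and -4.68 with it as the only fat array. The part of any adjoining tissue in these values was not tested.

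**Figure D4:**
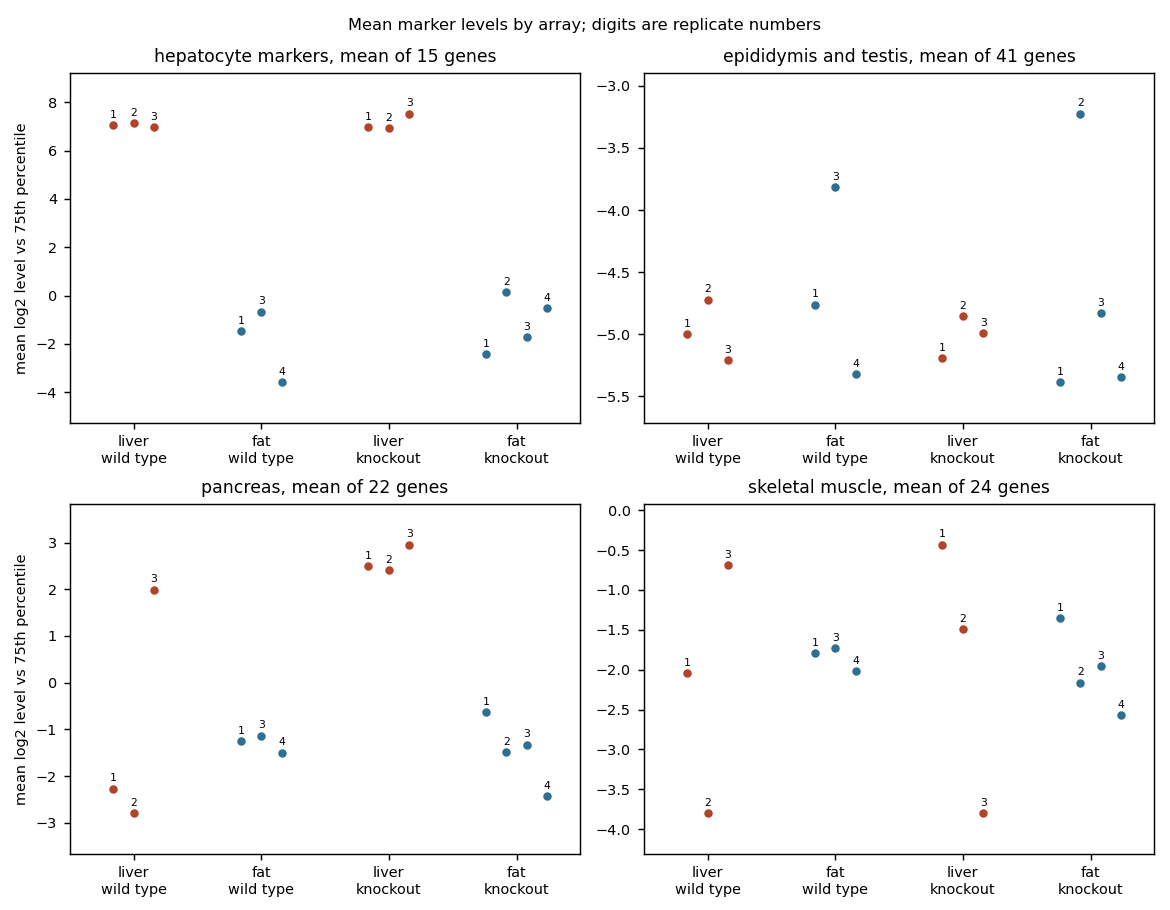
Mean level (log2 relative to the 75th percentile, vertical axis) of 4 marker lists on each wild-type and knockout array, with liver at the left of fat and the replicate number above each point. Hepatocyte markers separate the tissues on every array and vary among fat arrays, pancreas genes are high on liver replicate 3 of the wild type and on all 3 knockout livers, and epididymis genes are highest on fat replicate 3 of the wild type and fat replicate 2 of the knockout.

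The same contrast was tested on 7 arrays that the wild-type comparison did not use, 3 livers and 4 fat depots of JNK1 knockout mice. *Mapk8*, the targeted gene, stood at -3.22, -4.68 and -4.47 in knockout liver, against -1.98, -1.68 and -1.61 in wild-type liver. In fat it stood at -3.35, -2.98, -3.20 and -3.66 in the knockout, against -0.79, -0.96 and -1.0 in the wild type, so the genotypes did not overlap in either tissue. Of 15112 genes tested there, 4567 were higher in liver (30.2%) and 5313 lower (35.2%), 65.4% in all. Of the 9660 wild-type calls that could be tested again, 8263 (85.5%) were called in the same direction and 3 in the opposite one, and those 8263 made up 88.9% of the 9293 knockout calls tested in both. Across 14242 genes the r between the differences was 0.973, as a description, since genes are not independent. *Alb* differed by 6.54 in the knockout and 7.70 in the wild type, *Slc2a4* by -5.36 and -3.77, and *Adipoq* by -10.13 and -11.57. Of the CIDE and perilipin genes, 3 were apart in size: *Cidec* differed by -5.99 in the knockout and -3.42 in the wild type, *Cidea* by 0.12 and 2.08, and *Plin4* by -6.94 and -4.96. None of these genes passed the test of the difference between genotypes (adjusted p = 0.54, 0.805 and 0.581 for these 3 droplet genes), and 5 of 15332 genes did. The other CIDE and perilipin genes were closer. *Cideb* differed by 9.65 in the knockout and 9.80 in the wild type, and *Plin1* by -10.15 and -10.67. *Plin2* differed by 0.72 and 0.67, *Plin3* by 0.10 and 0.33, and *Plin5* by 2.74 and 2.50. *Akr1b7* stood at -2.83, -2.36 and -4.52 in knockout liver, against -4.27, -3.84, -3.29 and -4.29 in knockout fat, so the difference seen in the wild type was not found there (0.69 in the knockout and -8.62 in the wild type). The test of that difference gave an adjusted p of 0.242, with wild-type fat replicate 4 far from the other wild-type fat arrays.

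**Figure D5:**
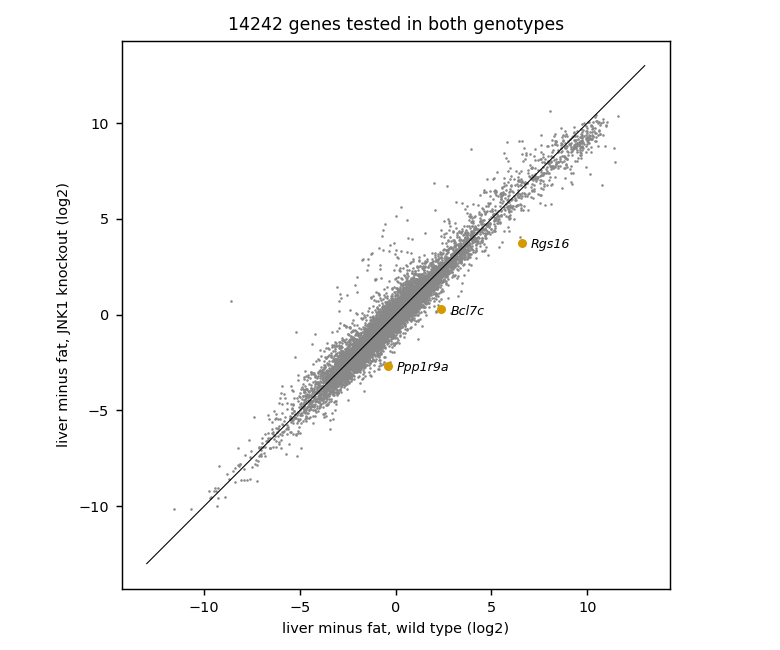
Liver minus fat in JNK1 knockout mice (log2, vertical axis) against the same difference in wild-type mice (log2, horizontal axis) for 14242 genes tested in both, each a point, with the line of equality. The points follow the line, and the 3 coloured genes are those of the 5 with a genotype-dependent difference that could be tested in both.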

How the data were processed

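RNA of liver and epididymal fat was hybridised as Cy3-labelled cRNA made from 0.2 ug of total RNA. Per the file headers, the authors' scanner files give the intensity of each spot after background subtraction by Feature Extraction (Agilent, version 10.7.3.1), unscaled between arrays. A second file, the authors' deposited value table, holds log2 values. Its centring and normalization are not given in the sources used here, although limma is named in the submitters' processing notes. All its columns were mapped to samples (0 left over), and it served as an alternative. Column medians are 5.79 to 5.83 for the 3 liver samples and 5.81 to 5.86 for the 4 fat samples, and its liver minus fat differences had a slope of 0.848 on those of the scanner values, in the same direction.

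Spots of a probe were averaged, and log2 of the processed intensity was set relative to each array's 75th percentile (R 4.3.3, with version 1.17.8 of the data.table package). Of the 41174 probes, 27896 matched a RefSeq accession for their current symbol, and 9186 of 27558 genes keep the name of the file. A gene is represented by its brightest probe over the 6 arrays (8946 genes had more than 1), and was tested when well above background on at least 3 of them. Liver and fat were compared with limma 3.58.1 (lmFit and eBayes, two-sided, Benjamini-Hochberg). The difference between genotypes was a contrast of 4 group means over 13 arrays. No probe was saturated. Probe positions are on mm9, and exon or untranslated region was not analysed. Promoters are RefSeq sequences (GRCm38.p6), and 10478 of the 14679 tested genes had one.

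The genes, lists and tests were chosen with earlier results of these data known. Named are the 10 largest differences each way among probes above background on all 6 arrays, the 8 largest bounds each way, for each list its first 3 members, its 3 largest differences and up to 3 members against its direction, members of the isoenzyme families, and the 8 genes of widest range in each tissue. Alternatives were background correction, scaling, filter, choice of probe, spread estimate, slide and replicate number as blocks, the authors' table, and left-out arrays. Some genes that this rule takes are not reported here.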

Additional observations from a re-analysis of the deposited data

Results flagged for a closer look

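Of 15332 genes, 5 had a liver minus fat difference that depended on genotype (limma, adjusted p below 0.05), and 964 had an unadjusted p below 0.05. The values that follow are knockout minus wild type of that difference, over 13 arrays. A930038B10Rik changed by -5.28 (adjusted p = 0.00474), Ppp1r9a by -2.26 (adjusted p = 0.0101), Lrit1 by -4.10 and Bcl7c by -2.10 (adjusted p = 0.0273 each), and Rgs16 by -2.84 (adjusted p = 0.0335). Leaving out each of the 13 arrays in turn gave adjusted p-values of 0.00188 to 0.0297 for A930038B10Rik, and of up to 0.059 for Ppp1r9a, which missed the threshold once. Lrit1, Bcl7c and Rgs16 reached 0.129, 0.129 and 0.14 and missed it in 7, 9 and 8 of the 13 repeats.

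Rgs16, a regulator of G protein signalling, stood at 2.69, 3.11 and 2.52 in knockout liver against 4.98, 4.57 and 5.48 in wild-type liver. In fat it stood at -1.57, -0.59, -0.93 and -0.83 in the knockout against -1.78, -1.56 and -1.43 in the wild type. Ppp1r9a, neurabin, stood at -0.97, -1.43 and -1.30 in knockout liver against 0.18, 0.42 and 0.61 in wild-type liver. Bcl7c stood at 1.20, 2.07 and 1.75 in knockout liver against 3.83, 3.80 and 3.93 in wild-type liver. In each of these genes the livers of the 2 genotypes did not overlap, but the genes were picked by a test on these same arrays.

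A930038B10Rik stood at -5.45, -4.31 and -5.23 in knockout liver against 0.63, 0.36 and 0.28 in wild-type liver, and Lrit1 at -4.16, -2.92 and -3.01 against 0.93, 0.88 and 0.82. Both were below background on every knockout array and on every fat array, so the size of their change is set by the background. The probes lie on chromosome 14 in mm9, that of A930038B10Rik at chr14:35579050-35579109 and that of Lrit1 at chr14:37878039-37878098. The probe of Mapk8, the targeted gene, lies at chr14:34204748-34204807. The positions were set side by side after the values were seen, and what they have to do with the change was not tested.

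The file of wild-type fat replicate 2, left out of every main value, averaged 5.70 for 24 keratinocyte and hair genes, against -3.74, -3.49 and -4.55 on the other wild-type fat arrays. The 7 skin arrays lay between 4.24 and 5.99.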

How the results depend on the processing

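Wild-type values were recomputed under up to 25 settings, the knockout calls under 12 and the difference between genotypes under 13. The wild-type calls numbered 9947 and lay between 8858 and 10380 when 1 of the 6 arrays was left out, and those with at least a doubling numbered 6813 and lay between 6644 and 7026. With the file of fat replicate 2 included, 6441 genes were called, 64.7% of the main calls in the same direction. A filter that asks for signal above background on all 6 arrays left 4389 genes with at least a doubling, fewer genes being tested. Without fat replicates 1 and 3, a setting chosen after seeing the data, 6818 were called, of which 6764 were main calls in the same direction. The median difference, 0.0316, was 0.0923 with normexp background, 0.218 with median centring, -0.149 with quantile normalization, -0.234 with the percentile over probes above background, 0.0963 with the filter on all 6 arrays, 0.504 without a filter and 0.0637 with the mean of all probes. It was 0.0424 with the slide as a fixed block, 0.0577 within the slide of liver 2 and fat 4, 0.0628 with fat replicate 2 included, 0.011 in the authors' deposited table and 0.0214 there with 4 fat samples. Leaving out 1 array gave 0.0274 to 0.0424. The cause of these shifts was not tested. The number of gene lists with a median above 0 was 30 of 55 and ran from 27 to 35 over all settings, and from 29 to 31 with 1 array left out.

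Whether the replicate numbers pair the samples is not known. The deviations of same-numbered liver and fat arrays correlated by -0.0971 and -0.087 in the wild type. In the knockout they correlated by 0.0243, -0.0402 and -0.0791, and so few arrays cannot decide the question. With the replicate block 7367 wild-type genes were called, 72.3% of the main calls in the same direction, and 9094 knockout genes. The replicate block on the authors' deposited table with 4 fat samples gave 8884 calls and a median of 0.0177.

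The knockout calls numbered 9880, 8557 to 9938 with 1 array left out, and 6491 with the slide as a fixed block. The 5 genes whose tissue difference depended on genotype became 1 to 31 with 1 of the 13 arrays left out, 31 without wild-type fat replicate 4 and 15 without wild-type liver replicate 3. Among 221 of the genes named, 1 called gene changed sign and lost its call, *Ghr*, at -0.139 with quantile normalization. Of the recomputed values, 88 kept the direction and lost the call, and 24 gained one, 10 of them of *Krt19*, 5 of *Plin2*, 4 each of *Acsl1* and *Cela3b* and 1 of *Pnlip*. Precision is limited by 3 arrays a tissue. Genes below background on all arrays of a tissue have only a bound.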

Other observations

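Genes of thyroid hormone and retinoid metabolism were higher in liver at 24 of 32 and lower at 6 (median 2.43). *Adh1*, an alcohol dehydrogenase that also oxidises retinol, stood at 8.74, 8.92 and 8.05 in liver, against 4.46, 4.52 and 4.66 in fat (4.03 ± 0.24, adjusted p = 1.67e-05). *Rdh7*, a retinol dehydrogenase, stood at 7.73, 7.74 and 7.41 in liver, against -1.89, -0.73 and -4.33 in fat (9.95 ± 0.84, adjusted p = 6.91e-05). *Aldh1a2* and *Aldh1a3*, of the next step, which makes retinoic acid, lay on the other side. Other enzymes of that step are not given here, and *Aldh1a2* is also on the mesothelium list. *Aldh1a2* was lower in liver, at -2.29, -2.76 and -2.32 in liver, against 1.96, 2.15 and 1.86 in fat (-4.45 ± 0.18, adjusted p = 4.32e-06), and so was *Aldh1a3*, at -2.71, -2.87 and -3.19 in liver, against 1.45, 0.73 and 1.26 in fat (-4.07 ± 0.23, adjusted p = 1.35e-05). *Rbp7*, a retinoid-binding protein of white fat, was at least 136-fold lower in liver (adjusted p = 2.70e-06).

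Iron and heme genes were higher in liver at 20 of 29 and lower at 5 (median 1.80). *Hamp2*, the other mouse hepcidin gene, was at least 514-fold higher in liver (adjusted p = 1.21e-05). *Heph*, hephaestin, the ferroxidase that helps iron leave cells, was lower in liver, at -2.98, -2.32 and -3.19 in liver, against 1.03, 0.73 and 0.85 in fat (-3.70 ± 0.24, adjusted p = 2.48e-05). *Blvra*, biliverdin reductase, stood at 1.86, 1.78 and 1.64 in liver, against 2.80, 3.34 and 3.16 in fat (-1.34 ± 0.18, adjusted p = 0.00059). Among 11 neural and Schwann cell genes, 5 were lower in liver and 1 was higher. Their median was -0.922, or -0.107 with fat replicate 4 alone, and as high as 0.386 over the other settings. *Mbp*, myelin basic protein, stood at -0.06, -0.02 and -0.25 in liver, against 3.17, 3.0 and 3.19 in fat (-3.23 ± 0.14, adjusted p = 4.99e-06). *Ngfr*, a neurotrophin receptor that stellate cells carry too, was higher in liver, at 1.78, 1.73 and 1.44 in liver, against -1.59, -2.86 and -3.25 in fat (4.22 ± 0.41, adjusted p = 0.000141).

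On the 3 wild-type skin arrays of the series, which enter no comparison here, the 15 hepatocyte markers averaged 1.28, against 7.05, 7.14 and 6.96 in liver and -1.46, -0.66 and -3.59 in fat. The 22 pancreas genes averaged -1.09 on those skin arrays. Whether these levels come from the tissues themselves was not tested.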
